A study of Mus musculus with 6 samples.

Results

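The genes described here encode 9 small leucine-rich proteoglycans: decorin (Dcn), biglycan (Bgn), asporin (Aspn), lumican (Lum), fibromodulin (Fmod), PRELP (Prelp), osteomodulin (Omd), osteoglycin (Ogn) and podocan (Podn). They were taken by symbol from the 54232 genes of a bulk RNA-seq count table, and each symbol matched 1 gene. The libraries, 3 of WT and 3 of Pbrm1 cKO, came from primary uterine stromal cells of mice aged 8 to 12 weeks, taken at day 4 of pseudopregnancy. Pbrm1 encodes a protein of the SWI/SNF complex, which moves nucleosomes along DNA. Controls are labelled WT, but the study's methods give the donors of these cells as Pbrm1 fl/fl. The cKO mice were Pbrm1 fl/fl and carried PR-IRES-cre, a Cre expressed from the progesterone receptor gene, so deletion is directed to every cell that expresses this receptor and not to stroma alone. Mice of both groups were mated. Each preparation pooled 5 to 10 uterine horns, which were digested with enzymes, and the cells were plated for 4 h and kept for 2 h more in fresh medium. The study calls the replicates biological, and the labels do not say which animals went into which library, so the p-values below measure the spread between these samples.

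Small leucine-rich proteoglycans are secreted proteins built around a curved array of leucine-rich repeats. Most of them bind fibrillar collagen and set the width and spacing of its fibrils. Several carry glycosaminoglycan side chains, chondroitin or dermatan sulfate on decorin and biglycan and keratan sulfate on lumican, fibromodulin and osteomodulin. Members also bind transforming growth factor beta and engage cell surface receptors, among them Toll-like receptors and receptor tyrosine kinases. In the uterus they belong to the collagen matrix of the stroma, which is remodeled when stromal cells decidualize.

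All libraries held 13253575 to 18338667 counts. Pbrm1 itself, scaled as DESeq2 normalized counts, stood at 1354, 1385 and 1677 in WT against 397, 459 and 451 in cKO, 29.6% of the WT mean. The groups did not overlap, and the targeted transcript was thus lower in every library labelled cKO (log2 fold change -1.76, SE 0.13, DESeq2 adjusted p = 5.20e-40). The stromal label was checked against 12 markers, all of which were detected, and vimentin (Vim) alone had 27270 to 36870 normalized counts. Markers of other cells were present too. The summed level of 14 leukocyte markers was 3976 to 8809 normalized counts in WT and 38450 to 40270 in cKO, with 12 of 13 tested markers higher in cKO. Endothelial markers summed to 1538 in WT replicate 1, 4562 and 3882 in the other WT libraries and 1351 to 1516 in cKO. Of these 10 markers 3 were lower and 1, Vwf, was higher (372% of WT). Pericyte markers summed to 508, 1323 and 1246 in WT and 503 to 564 in cKO (3 of 8 lower). Fits without 1 library gave 1 to 8 endothelial and 2 to 7 pericyte markers lower. Against these sums, Cdh5, Cox4i2 and Ndufa4l2, all called lower in cKO, were highest in WT replicate 1. Stromal markers summed to 72930 to 82490 in WT and 66740 to 71990 in cKO (1 of 12 higher, 6 lower), smooth muscle markers to 55500 to 59910 and 53470 to 55560 (4 of 9 lower), epithelial markers to 1931 to 3415 and 3508 to 3677 (3 of 11 higher), and mesothelial markers to 524 to 594 and 700.0 to 748 (1 of 7 higher). The smooth muscle sum was mostly Tagln and Des. Of the markers called lower, Des stood at 73.5% of WT, Acta2 at 51.0%, Cnn1 at 38.4% and Synpo2 at 34.9% (list median log2 fold change -0.44). The mesothelial sum in WT was mostly Wt1, which was not called, and the marker called higher was Krt14. WT replicate 1 had the lowest leukocyte sum (3976, against 8809 and 8794 in the other WT libraries) and the lowest epithelial sum (1931, against 3415 and 3277), as it had the lowest endothelial and pericyte sums. It stood apart from the other WT libraries, and the second principal component (7.4% of the variance of 500 genes) separated it. The part of these differences in cell content in the results below was not tested, and in bulk RNA fewer cells of a type cannot be told apart from less RNA per cell.

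Expression of the family was divided in its response. Podn and Aspn, both scarce in WT, and Bgn, an abundant member, were higher in cKO. Ogn, among the most abundant members in WT, fell to 39.9% of its WT level. The other 5 members (Dcn, Lum, Fmod, Prelp and Omd) did not pass the test. Thus 4 of 9 members were called at a DESeq2 adjusted p under 0.05, 3 higher and 1 lower, where 31.1% of the 17474 genes tested were called. The direction-specific background was 15.9% of genes higher and 15.2% lower. In 5 members (Bgn, Aspn, Prelp, Ogn and Podn) every cKO library lay on the same side of every WT library, against 48.6% of all genes tested, so the share of members that responded was not far from that of genes at large. The median log2 fold change of the 9 members was -0.19, beside -0.00 over all genes tested. All 9 passed the independent filter on low counts. As a share of all counts, the 9 genes together took 0.0663% in WT (SD 0.00651) and 0.0663% in cKO (SD 0.00490), n = 3 each. Summed per kilobase of exon instead, which gives the long transcripts less weight, the 9 levels came to 2197 ± 243 in WT and 1887 ± 145 in cKO, and per kilobase of principal transcript to 4434 ± 429 and 4355 ± 325.

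**Figure D1:**
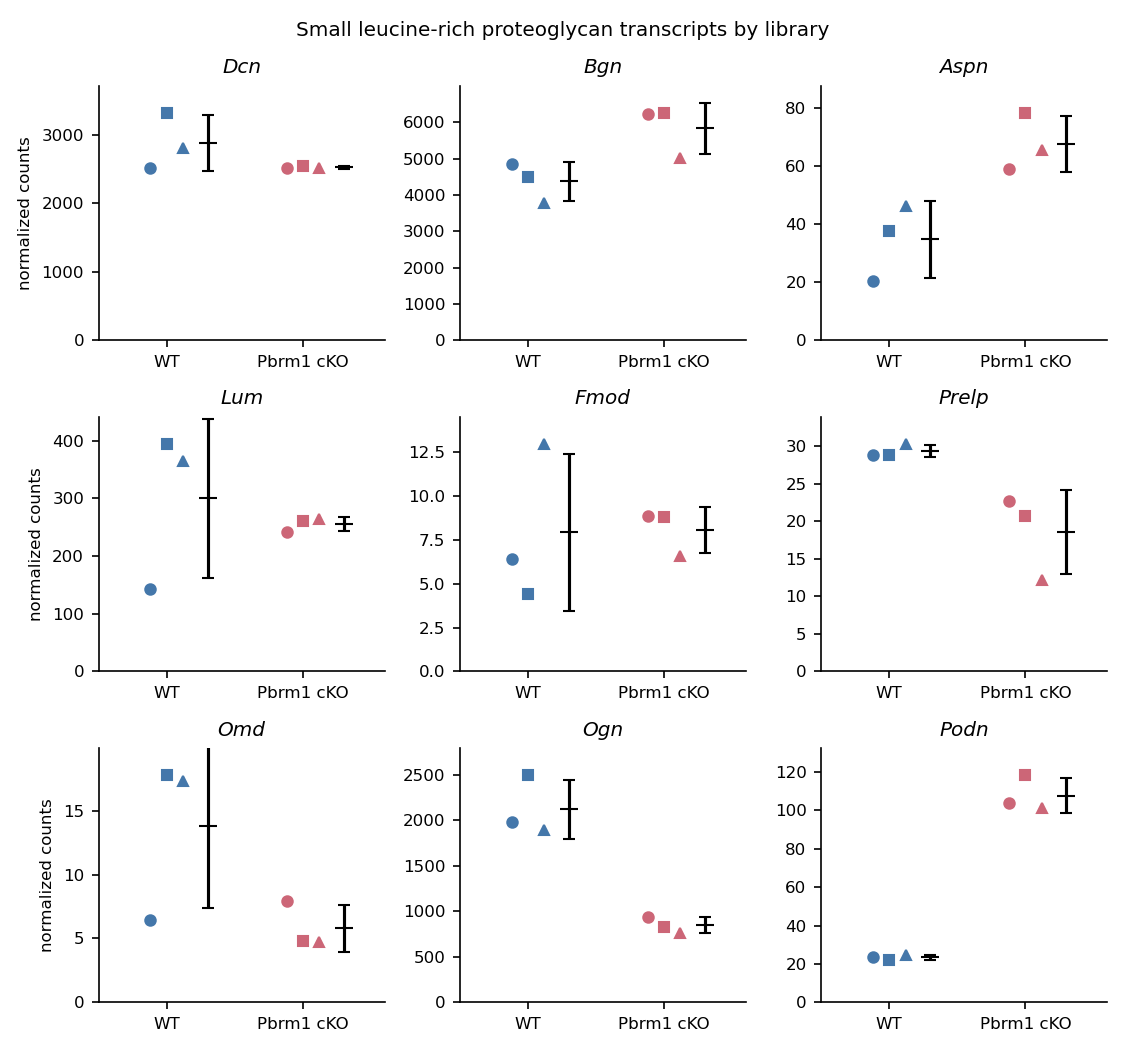
DESeq2 normalized counts of each of the 9 genes (y axes, linear, starting at 0) in the WT and Pbrm1 cKO libraries, where circles, squares and triangles are replicates 1, 2 and 3 and the black bar is the mean ± SD. Podn, Bgn and Aspn lie higher in all 3 cKO libraries and Ogn lies lower, while Dcn, Lum, Fmod and Omd overlap between groups.

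Ogn, of chromosome 13 (GRCm38, 49608046 to 49624501, forward strand), encodes osteoglycin or mimecan, a class III member that acts on collagen fibril assembly. It had 1977, 2494 and 1895 normalized counts in WT and 938, 833 and 767 in cKO. The lowest WT library was more than double the level of the highest cKO library. The means were 2122 ± 325 and 846 ± 86.6 (SD, n = 3 each), a fall by 1.33 on the log2 scale (SE 0.14, 95% interval -1.60 to -1.06, DESeq2 adjusted p = 2.44e-20). Without any 1 library the log2 fold change stayed between -1.41 and -1.20. WT replicate 1, which stood apart in its marker sums, held 1977 counts, close to WT replicate 3.

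Podn lies on chromosome 4 (108014791 to 108096445, reverse strand) and encodes podocan, a class V member that binds collagen and is known to restrain growth of vascular smooth muscle cells. Its normalized counts were 23.5, 22.2 and 24.9 in WT and 104, 118 and 101 in cKO. The WT libraries were close to each other, and each cKO library was far above them. The mean rose 4.58-fold, from 23.5 ± 1.33 to 108 ± 9.19 (log2 fold change 2.20, SE 0.29, 95% interval 1.63 to 2.76, DESeq2 adjusted p = 8.63e-13). Leaving out any 1 library gave 2.12 to 2.24. The Podn locus overlaps Scp2 on the same strand, and reads that fall in exons of both genes are assigned to neither. Scp2 had a log2 fold change of 0.25 with a DESeq2 adjusted p of 0.192.

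Bgn, on chromosome X (73483602 to 73495933, forward strand), encodes biglycan, which carries chondroitin or dermatan sulfate chains, binds collagen and can signal through Toll-like receptors. Its normalized counts were 4846, 4494 and 3783 in WT and 6228, 6248 and 5017 in cKO. The groups did not overlap, but the lowest cKO library (replicate 3) was only slightly above the highest WT library (replicate 1). The mean rose from 4374 ± 541 to 5831 ± 705 (SD, n = 3 each), 133.3% of WT (log2 fold change 0.42, SE 0.13, 95% interval 0.16 to 0.67, DESeq2 adjusted p = 0.00622). Without cKO replicate 1 the DESeq2 adjusted p was 0.0741 and without cKO replicate 2 it was 0.0806, with log2 fold changes of 0.37 and 0.36. In the other 4 fits without 1 library Bgn was called, with adjusted p-values of 0.000157 to 0.0224.

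Aspn (chromosome 13, 49544443 to 49567565, forward strand) encodes asporin, a collagen-binding class I protein that binds transforming growth factor beta and, unlike decorin and biglycan, typically lacks a glycosaminoglycan chain. Its normalized counts were 20.3, 37.7 and 46.5 in WT and 59.2, 78.3 and 65.7 in cKO. The WT libraries spread widely, with replicate 1 lowest, and all lay below the cKO libraries. The mean rose from 34.8 ± 13.3 to 67.7 ± 9.72 (log2 fold change 0.96, SE 0.35, 95% interval 0.29 to 1.64, DESeq2 adjusted p = 0.0202). Of the fits without 1 library, the call held only without WT replicate 3 (1.23, adjusted p = 0.00856). The DESeq2 adjusted p was 0.0973 without WT replicate 1, 0.0547 without WT replicate 2, and 0.0559, 0.163 and 0.0772 without cKO replicates 1, 2 and 3. The direction was the same in all of these fits, with log2 fold changes of 0.69 to 1.23. The call was also lost with the replicate number as a block (DESeq2 adjusted p = 0.0608) and in a test against a log2 fold change of 0.58 (adjusted p = 1.0).

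Decorin is the prototype of the family and a ligand of transforming growth factor beta and several receptor tyrosine kinases. Dcn (chromosome 10, 97479609 to 97518143, forward strand) had 2515, 3315 and 2803 normalized counts in WT and 2515, 2547 and 2517 in cKO. The cKO libraries were nearly equal, WT replicate 1 matched them, and the remaining WT libraries were higher. The mean was 2878 ± 405 in WT and 2526 ± 18.1 in cKO (log2 fold change -0.19, 95% interval -0.42 to 0.04, DESeq2 adjusted p = 0.233). Without WT replicate 1, the library that stood apart in its marker sums, the fall by 0.28 on the log2 scale passed the test (DESeq2 adjusted p = 0.0137).

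Lumican, a keratan sulfate proteoglycan of collagen fibrils, showed the same dependence. Lum (chromosome 10, 97565128 to 97572703, forward strand) had 142, 394 and 365 normalized counts in WT and 242, 260 and 264 in cKO. The low value of WT replicate 1 lay below every cKO library and the other WT values lay above them. Over all libraries the means were 300.5 ± 138 and 255 ± 11.9 (log2 fold change -0.23, SE 0.29, 95% interval -0.81 to 0.34, DESeq2 adjusted p = 0.615). Without WT replicate 1 Lum fell by 0.57 on the log2 scale (DESeq2 adjusted p = 0.000744), and without WT replicate 2 the estimate was 0.01 with an adjusted p of 0.994. Counted without WT replicate 1, 3 members (Ogn, Lum and Dcn) were lower and 2 members (Podn and Bgn) higher, where 34.2% of the 16030 genes tested in that fit were called, 17.7% higher and 16.5% lower.

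Prelp, Omd and Fmod had few counts, and their intervals were wide. Prelp (chromosome 1, 133910304 to 133921414, reverse strand) encodes a protein that links heparan sulfate of basement membranes to collagen. It had 28.9, 28.9 and 30.3 normalized counts in WT and 22.7, 20.8 and 12.2 in cKO. No cKO library reached the WT range, yet the log2 fold change of -0.66 had a 95% interval of -1.49 to 0.17 and a DESeq2 adjusted p of 0.255. Omd (chromosome 13, 49582462 to 49592822, forward strand), a keratan sulfate proteoglycan known from bone, had 6.41, 17.8 and 17.3 normalized counts in WT and 7.89, 4.79 and 4.69 in cKO. WT replicate 1 was again the low WT library and overlapped cKO (log2 fold change -1.26, 95% interval -2.64 to 0.11, DESeq2 adjusted p = 0.171). Of the 50-base stretches of its transcripts, 3.70% also occur in other genes, and whether this affected its small counts was not tested. Fmod (chromosome 1, 134037254 to 134048277, forward strand), which competes with lumican for collagen, had 6.41, 4.44 and 12.97 normalized counts in WT and 8.88, 8.79 and 6.57 in cKO. These levels overlapped, and the 95% interval of its log2 fold change ran from -1.40 to 1.45, which leaves room for more than a doubling in either direction (DESeq2 adjusted p = 0.986).

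**Figure D2:**
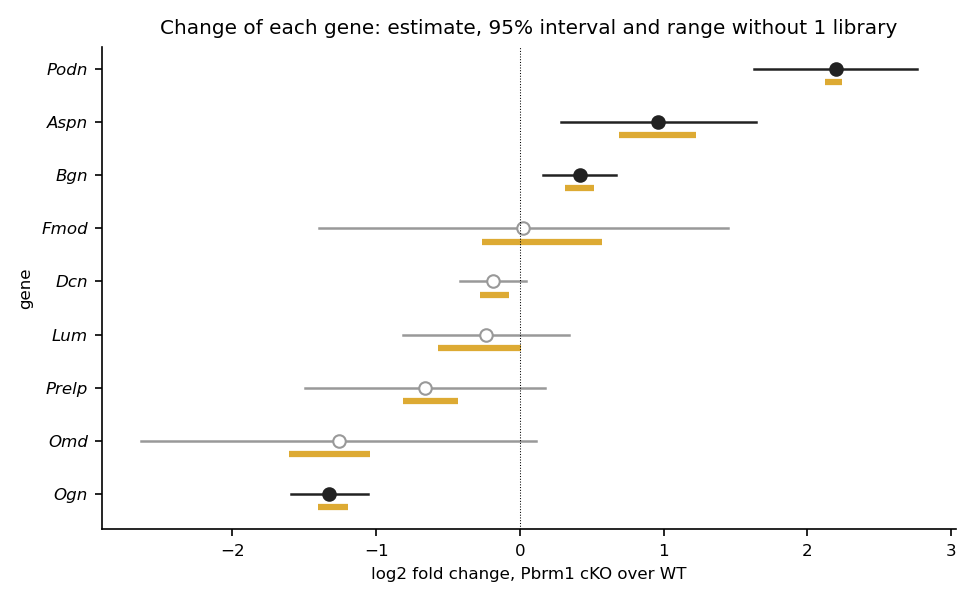
Log2 fold change of each gene, Pbrm1 cKO over WT (x axis), with the 95% interval as a thin line; filled black points passed the DESeq2 test, open grey points did not, and the thick yellow bar spans the 6 estimates made without 1 library each. Podn at 2.20 and Ogn at -1.33 keep short yellow bars, whereas the bars of Lum and Fmod reach across 0.

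Levels of different genes were compared as normalized counts per kilobase. The table gives the summed length of all exons of a gene, which exceeds the length of its main transcript where alternative transcripts are annotated. For Dcn the summed length is 5838 bases and the principal transcript 1758 bases, and for Bgn 6099 and 2419 bases. Per kilobase of principal transcript, a length chosen after the data were seen, Bgn was highest in WT at 1808 ± 224 and Dcn followed at 1637 ± 231. Their ranges overlapped, so these neighbors did not differ beyond their spread. Ogn came next at 827 ± 127 and then Lum at 123 ± 56.3, followed by Aspn (15.0 ± 5.72), Prelp (8.11 ± 0.225), Podn (7.42 ± 0.42), Omd (6.15 ± 2.86) and Fmod (2.55 ± 1.43). The ranges of Podn and Omd overlapped, as did those of Omd and Fmod. In cKO the order began with Bgn at 2411 ± 292, Dcn at 1437 ± 10.3 and Ogn at 330 ± 33.7, and Podn at 34.0 ± 2.90 was above Prelp and beside Aspn at 29.1 ± 4.17, whose range it overlapped.

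Per kilobase of summed exons Ogn came first in WT (827 ± 127), ahead of Bgn (717 ± 88.8) with overlapping ranges, and Dcn came after them (493 ± 69.4). In cKO the order on this scale was Bgn (956 ± 116), Dcn (433 ± 3.09) and Ogn (330 ± 33.7), with no overlap between them. Whether Ogn or Bgn led in WT therefore depended on the length used. On both scales Bgn led in cKO and Ogn was below Dcn there. Of the sum of the 9 levels per kilobase of summed exons, Bgn took 32.8% ± 4.66 in WT and 50.6% ± 2.36 in cKO, Ogn 37.5% ± 1.53 and 17.5% ± 0.981, and Dcn 22.4% ± 1.52 and 23.0% ± 1.79. By principal transcript the Bgn share was 40.9% ± 5.02 and 55.2% ± 2.69, and the Ogn share 18.6% ± 1.02 and 7.57% ± 0.46. The Dcn share by this length was 36.9% ± 3.08 in WT and 33.1% ± 2.48 in cKO.

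**Figure D3:**
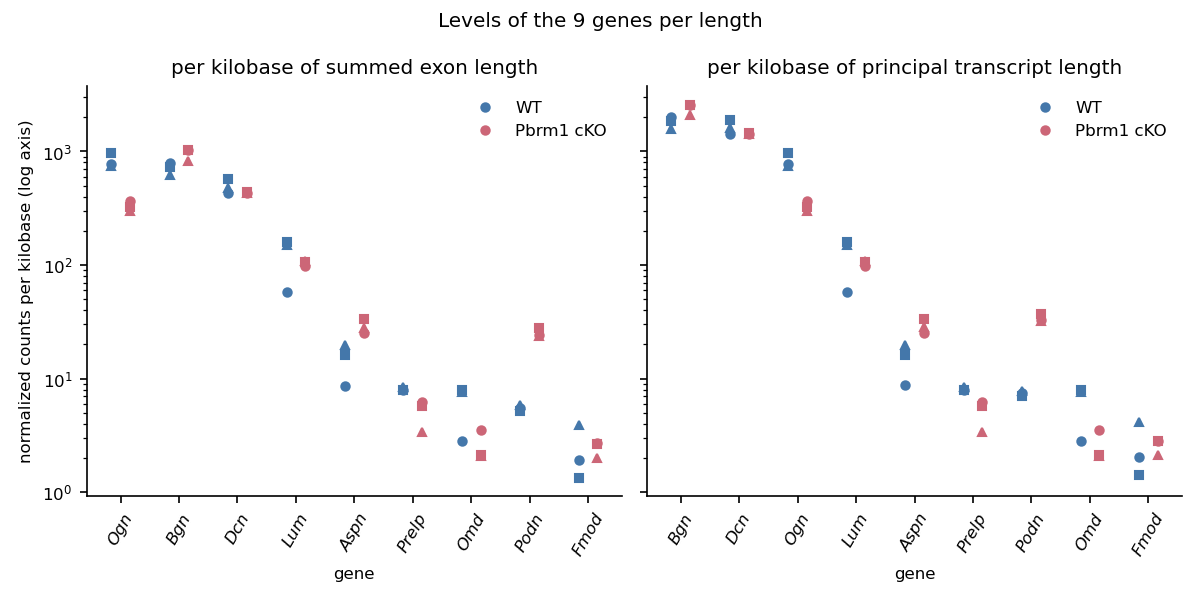
Normalized counts per kilobase (log axis) of each gene in every library, WT in blue and Pbrm1 cKO in red, with summed exon length on the left and principal transcript length on the right; genes are ordered by their WT mean and symbols mark replicates as circle, square and triangle. Ogn is first in the left panel and behind Bgn and Dcn in the right one, and in both panels Podn lies far above its WT level in the 3 cKO libraries.

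Ratios between members within a library do not depend on how libraries are scaled. Ratios were formed for 4 pairs and compared with a two-sided exact permutation test, whose smallest possible p with 3 against 3 libraries is 0.1, so no ratio could pass 0.05. The ratio of Bgn to Dcn, the closest paralogs, was 1.84, 1.30 and 1.29 in WT and 2.37, 2.35 and 1.91 in cKO on the summed exon scale. The groups did not overlap, but cKO replicate 3 and WT replicate 1 were close, and the mean ratio was 1.51-fold higher in cKO (exact permutation p = 0.1, adjusted p = 0.2 over the 4 ratios). The ratio of Ogn to Aspn, which share a cluster, was 89.3, 60.6 and 37.4 in WT and 14.5, 9.75 and 10.7 in cKO, 5.11-fold lower and also without overlap (exact permutation p = 0.1, adjusted p = 0.2). Lum to Dcn and Fmod to Lum overlapped between groups, with exact permutation p-values of 1.0 and 0.9.

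The genes of this family lie partly in clusters, and members of a cluster did not all change in the same direction. On chromosome 13, Ecm2, Aspn, Omd and Ogn follow each other on the forward strand within 119.7 kb. Ecm2 encodes an extracellular matrix protein with leucine-rich repeats. Its normalized counts were 24.6, 46.6 and 33.5 in WT and 20.7, 9.59 and 15.0 in cKO, lower in each cKO library (log2 fold change -1.22, SE 0.47, DESeq2 adjusted p = 0.0310). Over all 6 libraries Aspn, called higher, thus lies between Ecm2 and Ogn, both called lower. The Ecm2 call was lost without WT replicate 2 or 3, without cKO replicate 2 or 3, with the replicate number as a block, with no independent filtering and in the test against 0.58, and the Aspn call was lost in the fits named above. Its start is 11.7 kb past the end of Ecm2, and 40.5 kb separate its end from the start of Ogn. Cenpp overlaps the cluster on the opposite strand and had 2 to 6 counts per library. Past the cluster, Nol8 did not pass the test (0.12, DESeq2 adjusted p = 0.475), and Iars, an aminoacyl-tRNA synthetase gene, was higher in cKO (0.33, DESeq2 adjusted p = 0.0219). On the other side, Ippk (-0.12, DESeq2 adjusted p = 0.423) and Tes3-ps (0.33, DESeq2 adjusted p = 0.553) did not pass.

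On chromosome 10, Dcn and Lum are 47.0 kb apart, and neither passed the test over all 6 libraries. Kera, which encodes the corneal member keratocan, had 0 counts in all 6 libraries and Epyc at most 3. A count of 0 allows up to 3 counts, 0.164 to 0.226 CPM depending on the library, so lower levels were not detectable at this depth. On chromosome 1, Optc had at most 2 counts, Prelp and Fmod did not pass the test, and Btg2, an antiproliferative gene 26.9 kb from Fmod, was higher in cKO (0.33, DESeq2 adjusted p = 0.0163). Near Podn, Cpt2, a mitochondrial fatty acid enzyme gene, was higher (0.43, DESeq2 adjusted p = 0.0384), while Slc1a7 at 1.26 kb from Podn (1.63, DESeq2 adjusted p = 0.0650) and Echdc2 (-0.36, DESeq2 adjusted p = 0.0986) were not called. Haus7, the only protein-coding gene within 100 kb of Bgn with more than 3 counts in a library, was not called either (-0.29, DESeq2 adjusted p = 0.122).

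**Figure D4:**
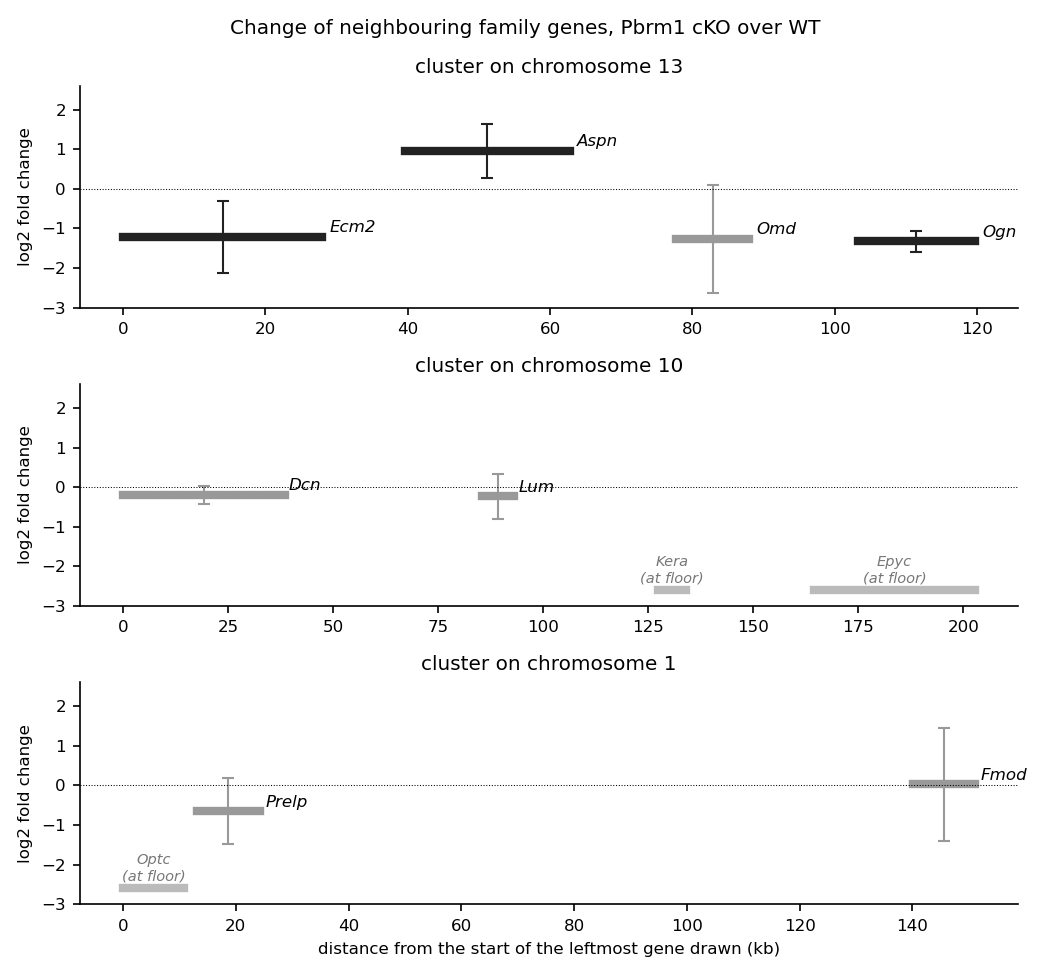
Log2 fold change, Pbrm1 cKO over WT (y axis), of family genes drawn at their distance in kb from the leftmost gene of each cluster (x axis); horizontal bars span the gene, vertical lines are 95% intervals, black marks genes that passed the DESeq2 test, and light grey bars at the bottom mark genes at the floor, for which no change is drawn. In the chromosome 13 cluster Aspn lies at 0.96 between Ecm2 at -1.22 and Ogn at -1.33.

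Upstream sequence is shown for the 4 members that changed, because 2 of them (Aspn and Ogn) are neighbors that moved in opposite directions. RefSeq promoters of GRCm38.p6 were matched by symbol for 7 of the 9 members. Dcn and Lum have no sequence here. Each line gives the 250 bases before the start site, 5′ to 3′ on the gene's strand, except that the Podn line stops where an annotated Podn exon begins and so holds 114 bases. Capitals mark matches to 6 motifs searched on both strands: TATAAA (the TATA box), CCAAT (read by the factor NF-Y), GGGCGG (the GC box), CANNTG (the E-box), TGANTCA (read by the factor AP-1) and TGTTCT (the short site of steroid receptors such as the progesterone receptor).
Aspn (chr13:49544193-49544442, forward strand): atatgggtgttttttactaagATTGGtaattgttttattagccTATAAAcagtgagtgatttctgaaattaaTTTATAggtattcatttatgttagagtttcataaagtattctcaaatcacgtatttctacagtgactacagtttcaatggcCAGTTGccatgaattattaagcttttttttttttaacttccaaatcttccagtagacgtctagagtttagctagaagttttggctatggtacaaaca
Ogn (chr13:49607765-49608014, forward strand): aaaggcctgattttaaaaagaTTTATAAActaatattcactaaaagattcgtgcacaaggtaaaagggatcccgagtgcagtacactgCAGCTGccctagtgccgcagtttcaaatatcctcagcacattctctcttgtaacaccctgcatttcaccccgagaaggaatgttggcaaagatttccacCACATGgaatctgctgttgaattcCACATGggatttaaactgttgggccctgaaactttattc
Bgn (chrX:73483351-73483600, forward strand): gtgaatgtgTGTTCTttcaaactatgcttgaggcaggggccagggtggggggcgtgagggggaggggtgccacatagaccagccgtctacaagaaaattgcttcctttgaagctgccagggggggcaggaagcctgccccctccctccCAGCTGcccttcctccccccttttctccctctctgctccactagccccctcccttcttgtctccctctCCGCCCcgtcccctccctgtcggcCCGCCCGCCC
Podn (chr4:108032091-108032204, reverse strand): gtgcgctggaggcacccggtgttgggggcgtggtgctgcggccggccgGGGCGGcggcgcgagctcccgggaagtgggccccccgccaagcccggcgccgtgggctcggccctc

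The 4 windows differed in base composition. RefSeq gives Podn a second start site downstream, and the window shown belongs to the upstream one. GC content over 250 bases was 30.0% for Aspn, 42.0% for Ogn, 64.4% for Bgn and 78.0% for this Podn window, beside a median of 52.4% over the 32851 promoters of the table. TATAAA, present in 12.4% of all promoters, occurred in Aspn (2 matches, on opposite strands) and in Ogn (2 matches, which overlap on opposite strands), none of them next to the start site. GGGCGG, present in 32.7%, occurred in Bgn (3 matches, of which 2 overlap) and in Podn (2 matches, of which the line above holds 1). CANNTG, present in 66.2%, occurred in all 4 windows of 250 bases, with 3 matches in Ogn and 1 in each of the others, that of Podn past the end of its line. CCAAT (33.8%) was found in Aspn and TGTTCT (16.1%) in Bgn, and TGANTCA (6.75%) in none of the 4. The 250 bases before the downstream Podn start site (chr4:108030987-108031236) had 64.0% GC, 3 matches to CANNTG and none to the other motifs. These matches describe letters in a window and not binding.

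Further genes of the family were tested from a list. For this and the later lists, and for the marker lists above, the background was 15.9% of all genes tested higher and 15.2% lower. Of 9 such genes (Kera, Epyc, Optc, Nyx, Tsku, Podnl1, Chad, Chadl and Ecm2), 4 were tested, 2 were higher and 1 lower in cKO. Tsku, encoding the secreted signaling modulator tsukushi, had 349 ± 79.5 normalized counts in WT and 478 ± 28.3 in cKO (log2 fold change 0.45, DESeq2 adjusted p = 0.0309). Podnl1, the paralog of Podn, had raw counts of 1, 0 and 0 in WT but 8, 15 and 8 in cKO. Taking 3 counts per library as the floor for WT, it was at least 2.80-fold higher (DESeq2 adjusted p = 0.00722). Thus Podn and its paralog were both called higher, although Podnl1 had few reads. Chadl did not pass (-0.56, DESeq2 adjusted p = 0.724). Without WT replicate 1 the number of these genes called higher was 2, and without any other library it was 0. The number called lower ranged from 0 to 1.

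The glycosaminoglycan chains are made in the Golgi by enzymes that build a linkage sugar, extend the chain and modify it. Of 7 genes for the linkage and chain start, 2 were higher and 2 lower (median log2 fold change 0.14, beside -0.00 over all genes). Xylt1, a xylosyltransferase that starts chains, went up from 95.9 ± 7.11 normalized counts to 194 ± 23.3 (log2 fold change 1.01). B3galt6 (-0.83) and B4galt7 (-0.35), the galactosyltransferases of the linkage, fell. Of 12 chondroitin sulfate genes, 1 was higher and 2 lower (median -0.11), with Chpf2 (-0.62) and Csgalnact2 (-0.35) lower and the sulfotransferase Chst11 (0.52) higher. Dse, the epimerase that converts chondroitin to dermatan sulfate, fell from 2666 ± 182 to 1702 ± 39.4 normalized counts (-0.65, DESeq2 adjusted p = 9.16e-11). Ust, a sulfotransferase for the epimerized sugar, rose (0.81, DESeq2 adjusted p = 2.51e-05), and Dsel (-0.05) and Chst14 (-0.06) did not pass. Of 6 keratan sulfate genes tested, 1 was lower, Chst2 (-0.51, DESeq2 adjusted p = 0.00374), and none passed in the other direction. These counts are small and moved with single libraries. For linkage genes, fits without WT replicate 2 or without cKO replicate 1 or 2 gave 1 higher and 1 lower, as did the replicate block, and there was also 1 higher without WT replicate 3 and 1 lower without cKO replicate 3. For chondroitin genes, 3 were higher and 4 lower without WT replicate 1, 0 were higher without WT replicate 2, and 1 was lower without cKO replicate 2. Chst2 was not called without cKO replicate 1. In the test against 0.58 no gene of these lists was called.

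Collagens that these proteoglycans bind were measured in the same libraries. Of 13 tested, 3 were higher and 6 lower (median log2 fold change -0.18), where 15.9% of all genes tested were higher and 15.2% lower. Col3a1 fell from 13940 ± 1552 to 3102 ± 103 normalized counts (-2.17, DESeq2 adjusted p = 1.41e-93), Col11a1 from 2447 ± 187 to 668 ± 47.1 (-1.87) and Col5a2 from 16880 ± 2982 to 8870 ± 298 (-0.93). Among those that rose, named after their values were seen, Col6a3 went from 49270 ± 5113 to 72190 ± 2787 (0.55, DESeq2 adjusted p = 4.57e-07) and Col5a3 from 3564 ± 896 to 6608 ± 259 (0.89, DESeq2 adjusted p = 1.03e-06). Of 16 genes for collagen processing and crosslinking, 2 were higher and 3 lower (median 0.03). Pcolce, an enhancer of procollagen cleavage, fell from 395 ± 38.6 to 96.1 ± 9.27 (-2.04, DESeq2 adjusted p = 3.25e-31), its paralog Pcolce2 rose (0.58) and the lysyl oxidase Loxl4 fell (-0.79). Of this list, 1 gene was higher without cKO replicate 1 and 5 were lower without WT replicate 3, while 2 were lower without WT replicate 1 or any 1 cKO library. The test against 0.58 left 0 higher and 1 lower here, and 0 higher and 2 lower among the collagens.

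Growth factors and receptors that bind these proteoglycans, or that bind collagen beside them, formed a further list. Of 12 tested, 7 were higher and 2 lower (median log2 fold change 0.45), beside 15.9% and 15.2% of all genes. Tested against a log2 fold change of 0.58, 3 were higher and 0 lower, and the fits without 1 library gave 5 to 8 higher and 1 to 2 lower. Tlr2, a receptor for biglycan that leukocytes also express, rose from 79.9 ± 22.0 to 529 ± 5.49 normalized counts (2.73, DESeq2 adjusted p = 2.95e-44). Tlr4, the other biglycan receptor of this kind on the list, fell from 2683 ± 219 to 1854 ± 72.9 (-0.53, DESeq2 adjusted p = 9.75e-07). It was named after its values were seen. The leukocyte marker sum moved in the direction of Tlr2 and against that of Tlr4, and its part in either change was not tested. Lrp1, an endocytic receptor for decorin, rose from 12250 ± 919 to 20730 ± 248 (0.76), and the collagen receptor subunit Itga2 rose from 940 ± 125 to 1865 ± 94.4 (0.99). Of 9 tested proteases known to cleave members of the family, 2 were higher and 2 lower (median -0.16). Adamts5 (-1.30, DESeq2 adjusted p = 5.66e-14) and Adamts1 (-0.60) fell and Mmp14 (0.55) rose. Of 15 other proteoglycans, 3 were higher and 4 lower (median 0.03), with Sdc2 (-1.29) lower and Agrn (1.03) and Sdc3 (0.71) higher.

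**Figure D5:**
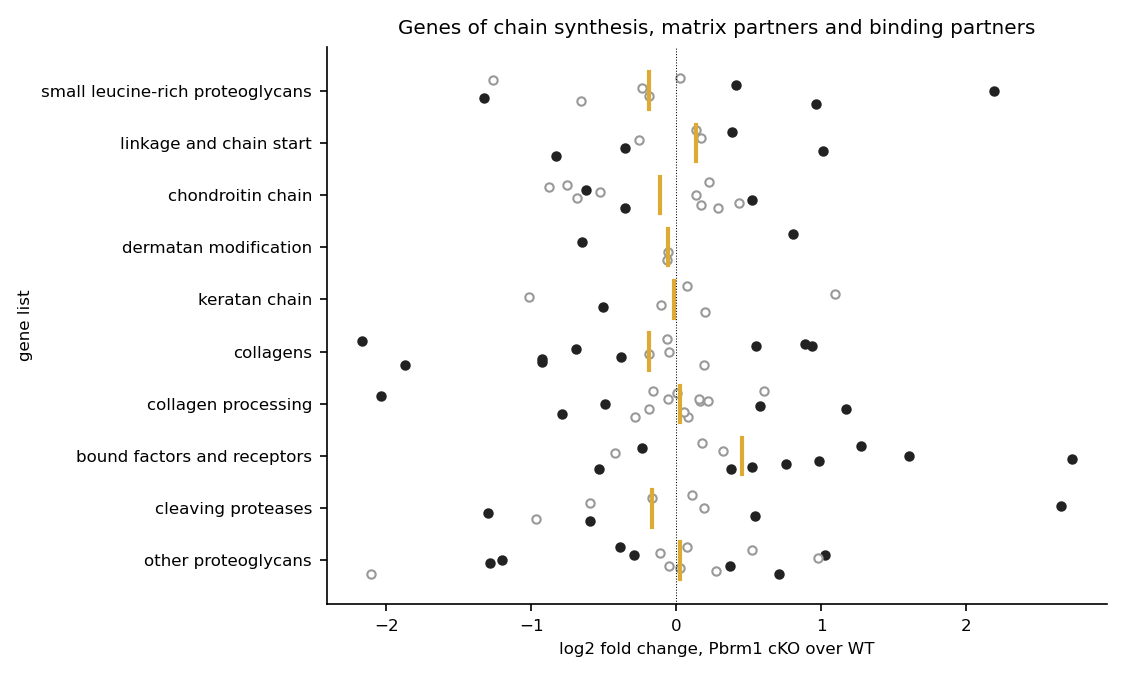
Log2 fold change, Pbrm1 cKO over WT (x axis), of every tested gene of each list (y axis; vertical position within a list has no meaning), with filled black points for genes that passed the DESeq2 test, open grey points for the rest, and a yellow bar at the median. The 9 proteoglycans spread from -1.33 to 2.20 around a median of -0.19, and the bound factors and receptors have a median of 0.45.

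The pattern of Bgn, the member with the highest mean level per kilobase over all libraries, was compared with that of 10985 genes with a mean of at least 50 normalized counts. By Pearson's r of log2(normalized count + 1) over the 6 libraries, the most alike were Greb1, a gene induced by steroid hormones (r = 0.997), Samd4b (r = 0.995) and Szrd1 (r = 0.995). The points share libraries and groups, and 478 genes exceeded 0.9, so this describes a common shape only. Among these 3, Samd4b was called higher (0.50, DESeq2 adjusted p = 0.00457), whereas Greb1 (0.20, DESeq2 adjusted p = 0.0895) and Szrd1 (0.18, DESeq2 adjusted p = 0.129) were not.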

How the data were processed

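Per the labels and the study's methods, the authors trimmed reads with cutadapt, mapped them to GRCm38.p5 with HISAT2 and counted them on GENCODE M18 genes with featureCounts 1.6.4, set to the reverse strand. Raw counts per gene and library were deposited, without normalization. Reads that map to several places or genes are left out by that program's defaults. The labels describe a total RNA kit with random and poly(T) priming, whereas the study's methods describe mRNA purification, so the RNA classes captured are not settled. Gene symbols came from GENCODE M21 (99.7% of identifiers).

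DESeq2 1.42.0 (R 4.3.3) was fitted to all genes (Wald test without covariates, Benjamini-Hochberg adjustment, threshold 0.05), and values are normalized counts with unshrunken log2 fold changes, cKO over WT. The fit was tested on simulated data. Alternatives used edgeR 4.0.16, limma voom 3.58.1, other scaling and filters, a test against 0.58 at an adjusted p of 0.1, a length trend, a replicate block and each library left out. At 3 counts or fewer in every library a group was at the floor, and such limits cover counting error only. Libraries of a group differed by more than sampling noise, 5.02 to 11.4 times between WT libraries and 1.64 to 3.05 times between cKO libraries. Members and lists were chosen with earlier results of these data known. Beside the members, the named genes are other family genes, the 3 of lowest adjusted p per list, protein-coding genes within 100 kb and the 3 most like Bgn, plus genes named in full for a short list.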

Additional observations from a re-analysis of the deposited data

How the results depend on the processing

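Ogn, Podn and Pbrm1 kept their direction and call under all 14 alternatives, with log2 fold changes of -1.41 to -1.20, 2.12 to 2.24 and -1.88 to -1.66. With changes tested against 0.58 on the log2 scale and the adjusted p threshold at 0.1, Bgn (0.42) and Aspn (0.96) were no longer called, which leaves 1 member higher, and 699 genes higher and 563 lower of all genes. Without 1 library each, the log2 fold changes ranged from -0.277 to -0.077 for Dcn, 0.32 to 0.52 for Bgn, 0.69 to 1.23 for Aspn, -0.573 to 0.005 for Lum and -0.26 to 0.57 for Fmod, members called higher from 1 to 3 and members called lower from 1 to 3. Without WT replicates 1 and 2 the Fmod estimate was -0.11 and -0.26, and without cKO replicates 1 and 2 it was -0.04 in each. The cause of these changes was not tested, and each of these fits also had fewer samples. Prelp and Omd passed no alternative.

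Deviations of same-numbered libraries from their group means correlated at 0.11, -0.05 and 0.00, and not every library correlated best with its own number. With 3 libraries per group this could not decide whether same-numbered libraries shared a preparation. With the replicate block 4003 genes were called, and Aspn (1.01, adjusted p = 0.0608) was not. Levels per kilobase of principal transcript, an alternative chosen after seeing the data, changed the order of Ogn, Bgn and Dcn in WT but not in cKO. Fmod and Omd, with few counts, had no value under edgeR, limma voom or a mean count of at least 10, whose filters they did not pass. Kera, Epyc, Optc, Nyx and Chad were at the floor in both groups, where absence cannot be told apart from levels too low for this depth.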
